A study of Mus musculus with 36 samples.

Results

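The genes described here are 9 protein kinases that act at entry into mitosis, Aurka, Aurkb, Plk1, Plk4, Nek2, Melk, Pbk, Mastl and Wee1, and the phosphatase Cdc25c. They were found as the array probes whose transcript accession maps to these mouse gene symbols. All 10 genes were on the array, on 16 of its 56605 probes, and all 16 probes passed the filter on dim signals that left 32492 gene names in all. Bhas 42 cells, a clonal line of BALB/c 3T3 mouse fibroblasts with an added viral Ha-ras oncogene that serves in cell transformation assays, were treated 4 days after seeding and collected 48 h later. The treated groups were NM-203, a synthetic amorphous silica, at 1, 2 and 5 µg/cm², DE (diatomaceous earth) at 5 µg/cm², Min-U-Sil 5, a ground quartz, at 20 µg/cm² and TPA, a phorbol ester, at 0.05 µg/ml. Water (2%) was the control of NM-203 and DE, a separate water group the control of Min-U-Sil 5, and DMSO (0.1%) the control of TPA. Each of the 9 groups held 4 samples, and all groups carry the same oncogene on the same clonal background.

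Entry into mitosis turns on the kinase CDK1 with its cyclin B partner. WEE1 holds CDK1 off by phosphorylating it, and CDC25 phosphatases such as CDC25C remove that phosphate. Aurora A with its cofactor Bora activates PLK1, which in turn activates CDC25C and marks WEE1 for destruction, while Greatwall, the product of Mastl, shuts down the phosphatase PP2A-B55 that would undo the work of CDK1. In dividing cells most of these genes are transcribed in G2 and mitosis, and their promoters are known targets of the DREAM, B-MYB and FOXM1 complexes.

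Values are log2 of the processed spot intensity relative to the 75th percentile of the array, so that a value of 1 is a signal of 2 times that percentile. A gene with several probes is represented by its brightest one. These 10 probes were well above background on all 36 arrays, as were all 9 fibroblast markers examined (Col1a1, Vim and Pdgfrb among them), while Epcam, Ptprc and Tek, which define epithelial, leukocyte and endothelial cells, were above background on 0 arrays and the epithelial Cdh1 on 1. Other genes of those marker lists were above background on all 36 arrays, namely Krt5, Krt8 and Krt14 of the epithelial list, Pecam1 of the endothelial list, and Csf1r, Cd68, Lyz2 and Itgam of the macrophage list. Replicate arrays correlated with r of 0.953 to 0.993 across genes. The arrays lay on 5 slides read on 2 scan days. The second day held every array of NM-203 at 2 µg/cm², of Min-U-Sil 5 and of its water. The first day held every array of the other water group, of DE, of DMSO and of TPA. NM-203 at 1 and 5 µg/cm² was split, with replicate 4 of the lower dose and replicate 1 of the higher one on the second day. The 4 experiments of the series are not tied to arrays by any label, so p-values measure the spread between these samples, which may be technical. The arrays hold bulk RNA, in which more cells that carry a transcript and more transcript per cell cannot be told apart.

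All 10 genes were higher than in their controls after NM-203 at 5 µg/cm², Min-U-Sil 5 and TPA. After NM-203 at 5 µg/cm² the log2 change ran from 1.04 for Wee1 to 2.43 for Pbk (2.06- to 5.37-fold), and all 10 passed the test (limma with Benjamini-Hochberg adjustment over all genes, adjusted p of 2.98e-12 to 0.00634), where 14% of all genes tested were called higher. After Min-U-Sil 5 the changes ran from 0.77 for Wee1 to 1.98 for Nek2 (1.70- to 3.96-fold), with 10 of 10 called against 11.6% of all genes. After TPA they ran from 1.13 for Wee1 to 2.49 for Aurka (2.19- to 5.60-fold), with 10 of 10 called against 4.89% of all genes. In each of these 3 comparisons the treated arrays and the control arrays did not overlap for any of the 10 genes, which held for 15.9% of all genes in the upward direction after NM-203 at 5 µg/cm², 11.8% after Min-U-Sil 5 and 7.99% after TPA. The median change of the 10 genes was 2.21, 1.72 and 2.12 on the log2 scale in these 3 comparisons, against 0.01, 0.04 and -0.04 over all genes. In NM-203 at 5 µg/cm² the summed signal of the 9 fibroblast markers was 553 to 753 times the 75th percentile, against 844 to 960 in water. In Min-U-Sil 5 it was 686 to 750, against 850 to 1233 in its water, and in TPA 797 to 888, against 918 to 1023 in DMSO. The sum for the 5 macrophage markers that were tested was 14.6 to 20.1 in NM-203 at 5 µg/cm², against 18.5 to 27 in water. It was 11.7 to 15.3 in Min-U-Sil 5, against 12.4 to 19.5 in its water, and 21.1 to 26.1 in TPA, against 18.8 to 23.4 in DMSO. Of the 9 fibroblast markers 6, 6 and 1 were called lower and 0 higher after NM-203 at 5 µg/cm², Min-U-Sil 5 and TPA. The shares of all genes called lower there were 19.1%, 13.9% and 6.78%. The part of these marker shifts in the changes of the kinases was not tested.

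NM-203 at 1 and 2 µg/cm² and DE gave fewer calls. NM-203 at 2 µg/cm² raised 8 of the 10 genes, by 1.18 for Plk4 up to 2.13 for Aurkb on the log2 scale, where 16.2% of all genes were called higher and the median gene stood 0.11 above water. Aurka and Wee1 did not pass there, and the arrays lay apart from water for 8 of 10, against 14.7% of all genes in the upward direction. The arrays of that dose and of water came from different scan days, and with the slide or the day as a block 9 of the 10 were called, Wee1 added (0.93 and 0.86) and Aurka not, where 4.61% and 3.26% of all genes were called higher. The dose and water shared no slide or day. Either block linked them only through the arrays of NM-203 at 1 and 5 µg/cm² read on the second day, replicates 4 and 1. For Wee1 these were the lowest arrays of their groups (-0.83 and 0.30). At that dose the summed signal of the 4 tested epithelial markers was 0.524 to 0.884 times the 75th percentile, against 0.374 to 0.495 in water, with 2 of 4 called higher (Krt5 and Krt14). That of the 5 macrophage markers was 9.003 to 16.3, against 18.5 to 27 in water, with Adgre1 called higher and Itgam lower. In the water of Min-U-Sil 5, read on the same day as this dose, the epithelial sum was 0.477 to 0.981 and the macrophage sum 12.4 to 19.5. Both ranges overlapped with those of the dose. Of the 9 fibroblast markers 3 were called lower and 0 higher at this dose, where 8.85% of all genes were called lower. The part of the scan day in these shifts, and of these shifts in the changes of the kinases, was not tested. NM-203 at 1 µg/cm² raised 2 of 10, Plk1 and Nek2, where 0.0431% of all genes were called higher. The changes at that dose ran from 0.17 for Wee1 to 0.87 for Cdc25c, and 4 of 10 genes lay apart from water, where 2.16% of all genes did in that direction. Plk1 and Nek2 lost their call in many of the other settings tried, among them the leaving out of replicate 1, 2 or 4 of that dose or replicate 2, 3 or 4 of water, each of which left 0 of 10 called. Leaving out 1 array gave 2 to 101 of 32492 genes called in either direction at that dose, against 28 with all arrays. DE raised 4 of 10, Aurkb, Plk1, Nek2 and Cdc25c, by 0.81 to 0.95 on the log2 scale, where 0.557% of all genes were called higher. Its arrays lay apart from water for 7 of 10 genes, against 2.59% of all genes. Without replicate 1 of DE or replicate 3 of water 0 of the 10 were called after DE, without replicate 4 of water 1 and without replicate 3 of DE 2. The calls over all genes varied too, from 87 (without replicate 3 of water) to 410 of 32492 in either direction, against 327 with all arrays.

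**Figure D1:**
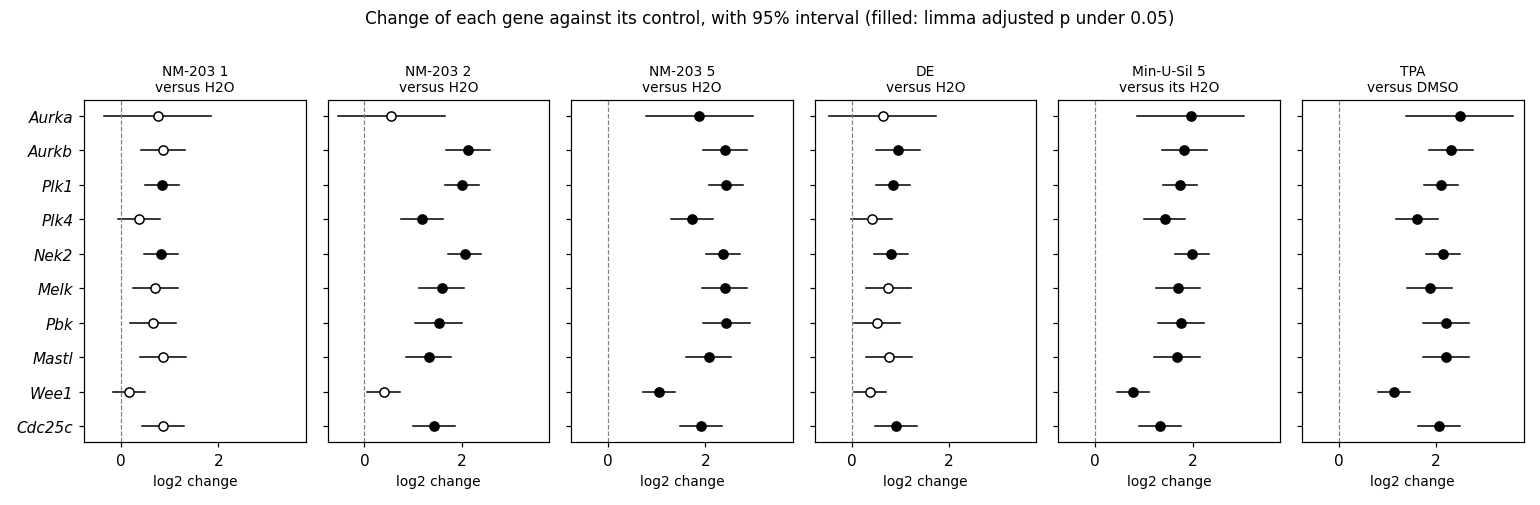
Log2 change of each gene against its control (points) with its 95% interval from the limma fit (lines), 1 panel per treatment, with filled points for an adjusted p under 0.05. All 10 points are filled for NM-203 at 5 µg/cm², Min-U-Sil 5 and TPA, against 2 for NM-203 at 1 µg/cm² and 4 for DE, and Wee1 lies left of the other 9 in every panel.

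Aurka encodes Aurora A, the kinase that matures the centrosomes and the spindle poles. Its values were 2.06, 1.70, 1.48 and 1.52 in water, 2.94, 2.40, 2.28 and 2.19 at 1 µg/cm² of NM-203, 3.89, -0.85, 3.08 and 2.85 at 2 µg/cm², and 2.73, 3.69, 3.99 and 3.85 at 5 µg/cm². The second array of the middle dose lay below every water array, while the other 3 arrays of that dose lay above every water array. The Aurka spot on that array was well above background and was not marked as an outlier by the scanner software, yet the array had the most outlier spots of the 36 (380, against 74 to 258 on the others) and the lowest array weight in limma (0.206). With it the change at 2 µg/cm² was 0.55 ± 0.54 (SE, adjusted p = 0.481). Without it, a setting chosen after the values were seen, the change was 1.58 ± 0.28 (adjusted p = 0.000172). Because all groups share 1 estimate of the spread, that array also widened the error of Aurka elsewhere: the SE of every other treatment against its control was 0.54 with it and 0.26 without it. Aurka measured 3.62, 3.80, 3.47 and 3.49 after Min-U-Sil 5, against 1.12, 1.89, 1.61 and 1.92 in its water. After TPA it measured 3.71, 3.48, 3.74 and 3.76, against 1.27, 0.56, 1.77 and 1.14 in DMSO, a change of 2.49 ± 0.54 (5.60-fold, adjusted p = 0.00163). Both pairs of groups lay apart, and the TPA arrays lay closer together than those of DMSO. DE gave 2.70, 2.02, 2.05 and 2.56, which overlapped with the water arrays.

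Aurkb encodes Aurora B, the catalytic subunit of the chromosomal passenger complex, which corrects the attachment of chromosomes to the spindle. It measured -1.04, -1.26, -1.50 and -1.52 in water, 0.01, -0.41, -0.70 and -0.73 at 1 µg/cm² of NM-203, 1.69, 0.78, 0.79 and -0.05 at 2 µg/cm², and 1.21, 0.67, 1.24 and 1.17 at 5 µg/cm². Every array of NM-203 lay above every water array, and the 2 µg/cm² arrays were spread most widely, with an SD of 0.71. The change was 2.40 ± 0.22 at the highest dose (5.29-fold, adjusted p = 4.72e-10). In Min-U-Sil 5 Aurkb ranged from 1.23 to 1.50, against -0.66 to -0.25 in its water, a change of 1.83 ± 0.22. The second Aurkb probe gave a smaller change at 2 µg/cm² (1.21 ± 0.28) and was called there too. After DE that probe changed by 0.62 ± 0.28 (limma adjusted p = 0.406) and so did not share the call of the brighter one (0.95 ± 0.22, adjusted p = 0.0277).

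Plk1 encodes Polo-like kinase 1, which drives mitotic entry, centrosome maturation and the exit from mitosis. In water it measured 1.79, 1.62, 1.18 and 1.36, at 1 µg/cm² of NM-203 2.75, 2.33, 2.08 and 2.14, at 2 µg/cm² 4.09, 3.25, 3.32 and 3.33, and at 5 µg/cm² 3.99, 3.70, 3.98 and 3.96. No array of any dose overlapped with water, and the 1 µg/cm² arrays lay below all arrays of the 2 higher doses, while those doses overlapped with each other. The log2 change was 2.42 ± 0.17 at 5 µg/cm² (5.34-fold, adjusted p = 2.98e-12). DE gave 2.69, 2.05, 2.36 and 2.24, a change of 0.85 ± 0.17 (adjusted p = 0.00940), and all 4 arrays lay above water. TPA gave 3.44, 3.36, 3.65 and 3.66, against 1.26, 1.48, 1.55 and 1.44 in DMSO.

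Plk4, the Polo-like kinase that starts the duplication of centrioles, changed less than Plk1 in each of the 6 treatments, with 1.72 ± 0.21 at 5 µg/cm² of NM-203, 1.43 ± 0.21 after Min-U-Sil 5 and 1.61 ± 0.21 after TPA. At 5 µg/cm² it measured 0.17, 0.08, 0.27 and -0.34, against -1.39, -1.70, -1.85 and -1.77 in water. Its 3 probes gave similar changes there (1.57 to 1.82) and after TPA (1.57 to 1.78). At 2 µg/cm² of NM-203 they did not: the brightest probe changed by 1.18 ± 0.21 (adjusted p = 9.46e-05), while the other probes changed by 0.07 ± 0.19 and 0.13 ± 0.18, with limma adjusted p of 0.825 and 0.618. The call of Plk4 at that dose therefore rests on 1 of 3 probes, and the cause of the difference was not tested.

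Nek2, a kinase that separates the centrosomes before the spindle forms, ran close to Plk1. It measured -2.04, -2.32, -2.58 and -2.29 in water, -1.09, -1.59, -1.49 and -1.78 at 1 µg/cm² of NM-203, 0.27, -0.26, -0.38 and -0.64 at 2 µg/cm², and 0.01, -0.08, 0.18 and 0.08 at 5 µg/cm². All arrays of the 3 doses were above all water arrays. After TPA its 4 arrays lay close together, at -0.25, -0.27, -0.25 and -0.30, against -2.68, -2.47, -2.32 and -2.17 in DMSO. The change after TPA was 2.14 ± 0.17 (4.41-fold, adjusted p = 2.97e-10) and after Min-U-Sil 5 1.98 ± 0.17 (3.96-fold, adjusted p = 3.58e-10).

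Melk and Pbk encode kinases of dividing and progenitor cells that take part in mitosis and cytokinesis. Each had a higher mean at each higher dose of NM-203, as did all the other genes of the 10 except Aurka. Melk averaged -1.05 ± 0.35 in water, -0.34 ± 0.43 at 1 µg/cm², 0.53 ± 0.43 at 2 µg/cm² and 1.34 ± 0.23 at 5 µg/cm² (SD, n = 4 each). Pbk averaged -1.79 ± 0.32 in water, -1.14 ± 0.43 at 1 µg/cm², -0.27 ± 0.59 at 2 µg/cm² and 0.63 ± 0.19 at 5 µg/cm² (SD, n = 4 each). The 5 µg/cm² arrays of Melk, 1.24, 1.1, 1.62 and 1.42, lay above all arrays of the other 3 groups, whereas the highest 2 µg/cm² array of Pbk (0.53) lay above its lowest 5 µg/cm² array (0.38). The change of Pbk, 2.43 ± 0.23, was the largest of the 10 at 5 µg/cm², though within an SE of those of Plk1, Aurkb, Melk and Nek2.

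Mastl encodes Greatwall. It averaged -2.62 ± 0.35 in water, -1.76 ± 0.44 at 1 µg/cm² of NM-203, -1.31 ± 0.41 at 2 µg/cm² and -0.56 ± 0.35 at 5 µg/cm² (SD, n = 4 each). At 5 µg/cm² the change was 2.07 ± 0.23 (4.19-fold, adjusted p = 1.29e-08). TPA gave -0.49, -0.69, -0.15 and -0.06, against -2.73, -2.72, -2.24 and -2.48 in DMSO, a change of 2.20 ± 0.23. Of its 3 probes, the dimmest was well above background on 23 arrays and changed by 3.20 ± 0.34 after TPA. At 2 µg/cm² of NM-203 the 3 probes spread from 0.24 ± 0.37 to 1.76 ± 0.34, and 1 of them, with a limma adjusted p of 0.669, was not called.

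**Figure D2:**
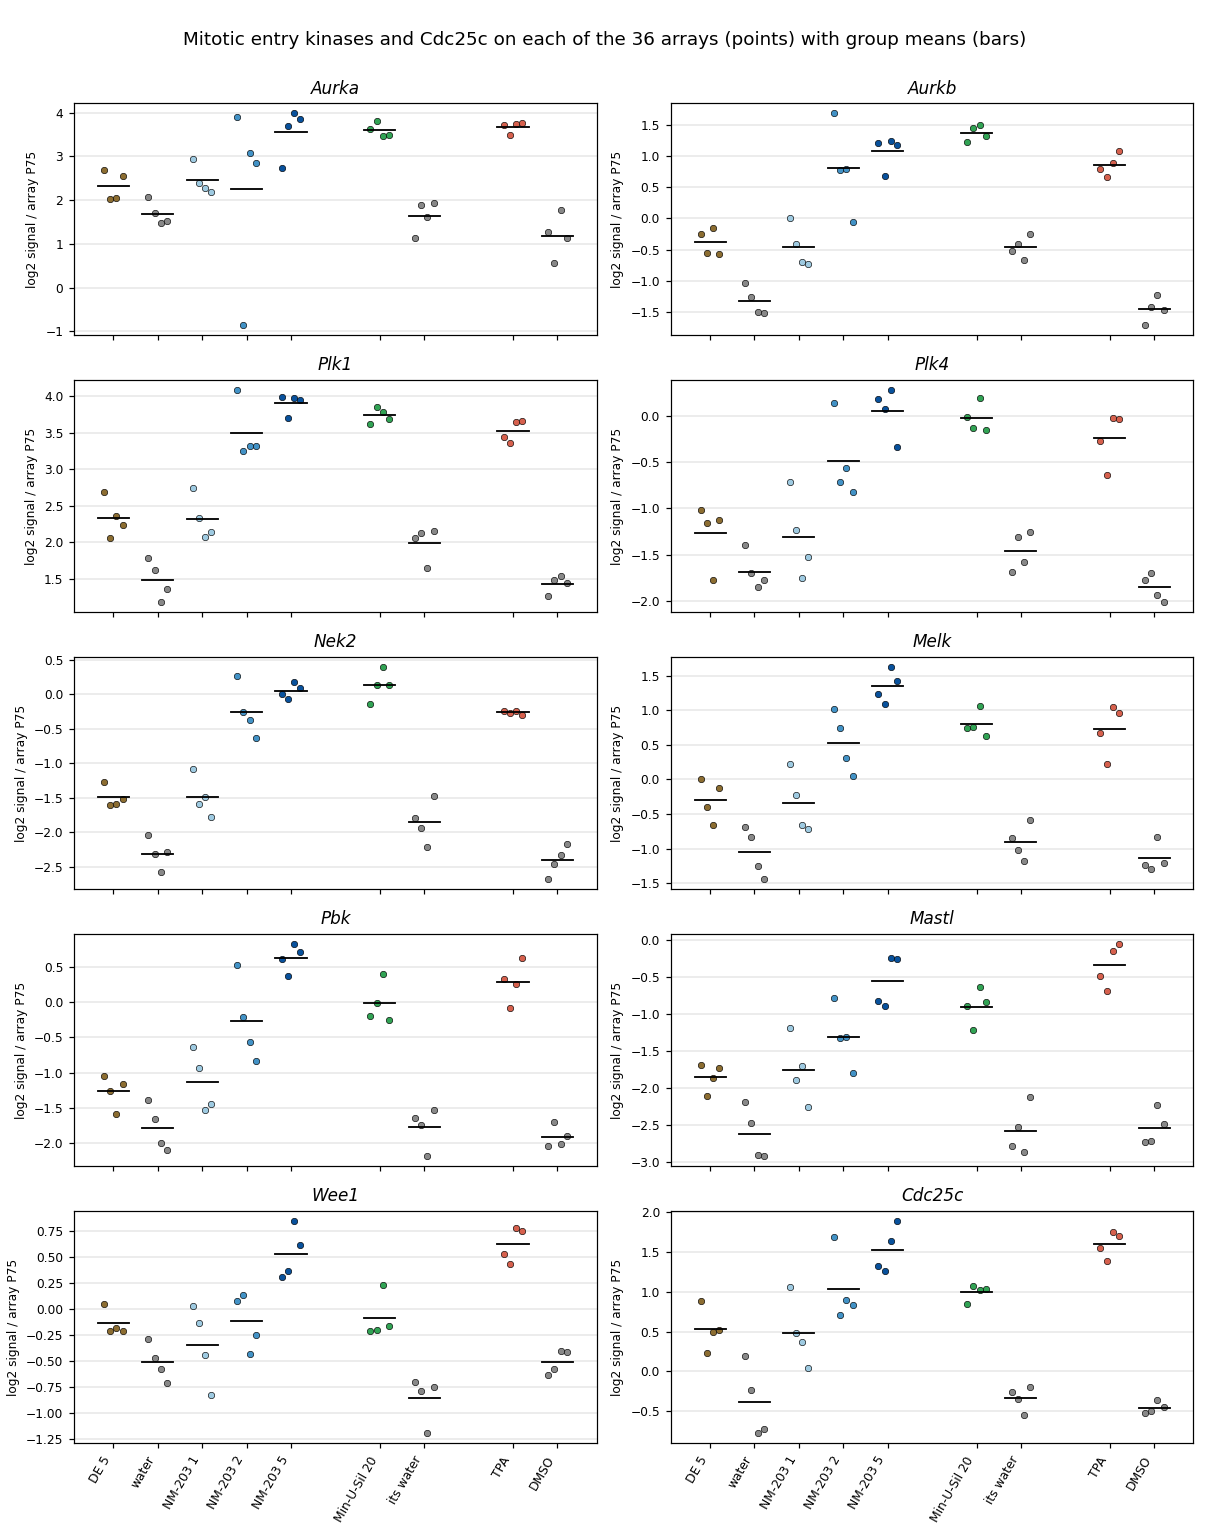
Log2 signal relative to the 75th percentile of the array (vertical axes) on each of the 36 arrays, 1 panel per gene, 4 points per group with the group mean as a bar. The arrays of NM-203 at 5 µg/cm², Min-U-Sil 5 and TPA lie above those of their controls in every panel, and 1 array of NM-203 at 2 µg/cm² stands alone at -0.85 for Aurka.

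Wee1 and Cdc25c act in opposite directions on CDK1, and both rose at the high exposures, Cdc25c by more. Wee1 measured -0.30, -0.48, -0.58 and -0.71 in water, 0.02, -0.13, -0.45 and -0.83 at 1 µg/cm² of NM-203, 0.07, 0.13, -0.43 and -0.26 at 2 µg/cm², and 0.30, 0.37, 0.84 and 0.61 at 5 µg/cm². The lower 2 doses overlapped with water and the highest did not. Cdc25c measured 0.19, -0.24, -0.77 and -0.72 in water, 1.06, 0.48, 0.37 and 0.05 at 1 µg/cm², 1.70, 0.71, 0.90 and 0.84 at 2 µg/cm², and 1.32, 1.26, 1.64 and 1.89 at 5 µg/cm². At 5 µg/cm² Wee1 was 2.06-fold and Cdc25c 3.77-fold above water. Min-U-Sil 5 gave 1.70-fold for Wee1 and 2.52-fold for Cdc25c, and TPA 2.19-fold and 4.16-fold. Wee1 had the smallest change of the 10 genes in all 6 treatments.

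The difference of both log2 values on each array, Cdc25c minus Wee1, does not depend on how an array is scaled. Its zero has no meaning, since the values come from different probes, but its shift between groups gives the unequal change. It averaged 0.84 ± 0.17 at 1 µg/cm² of NM-203, against 0.13 ± 0.30 in water (SD, n = 4 each), and 1.16 ± 0.44 and 1.00 ± 0.21 at 2 and 5 µg/cm². The shift was 0.70, 1.03 and 0.87 at the 3 doses. It was 0.57 after Min-U-Sil 5, where the difference averaged 1.09 ± 0.21, against 0.52 ± 0.10 in its water, and 0.93 after TPA, with 0.98 ± 0.03, against 0.05 ± 0.06 in DMSO. In these 5 comparisons all 4 treated arrays lay above all 4 control arrays, and the two-sided exact permutation test gave 0.0286, the smallest p that 4 against 4 arrays allow, and 0.0343 after adjustment over the 6 treatments. Wee1 changed least of the genes described here in each treatment, so the mean of every other one also shifted upwards relative to Wee1. The shift is therefore not particular to Cdc25c, and the share of all genes that lie apart relative to Wee1 was not computed. DE gave a shift of 0.54 with an exact p of 0.0571, and its lowest array (0.44) lay below the highest water array (0.49). The arrays at 2 µg/cm² and their water came from different scan days. In the water of Min-U-Sil 5, read on the same day as that dose, the difference was 0.44 to 0.65. The lowest array at 2 µg/cm² (0.58) lay within that range, and the dose was not tested against that water. At 1 µg/cm² Cdc25c was higher relative to Wee1 although neither gene passed the limma test there (adjusted p of 0.102 and 1.00). On the dimmer Wee1 probe, which was above background on 32 arrays, the changes were -0.21 ± 0.29 at 1 µg/cm², 1.11 ± 0.29 at 5 µg/cm² and 1.59 ± 0.29 after TPA. With the mean of the Wee1 probes the shift at 2 µg/cm² was 0.97 and no longer passed, and that of DE was 0.77 and passed.

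**Figure D3:**
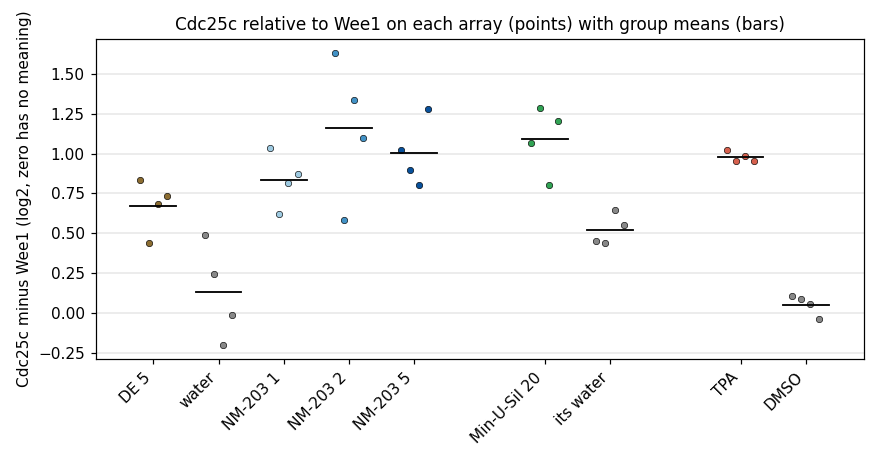
Cdc25c minus Wee1 on each array in log2 units (vertical axis), 4 points per group with the group mean as a bar. All points of the 3 NM-203 doses, Min-U-Sil 5 and TPA lie above those of their controls, whereas the lowest DE array (0.44) lies below the highest water array (0.49).

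Between the doses of NM-203, 9 of the 10 genes were higher at 5 than at 1 µg/cm², by 0.88 for Wee1 to 1.77 for Pbk, where 12.6% of all genes were called higher. The same 9 did not overlap, where 14.1% of all genes did not. Aurka was the exception (1.11 ± 0.54, limma adjusted p = 0.137), and it passed without the outlying array (adjusted p = 0.00129). Within slides 1, 3 and 5 all 10 genes were higher at 5 µg/cm². Between 5 and 2 µg/cm² the test called 5 of 10, Plk4, Melk, Pbk, Mastl and Wee1, by 0.54 to 0.90, where 11.7% of all genes were called higher and the median gene was 0.14 lower. Melk and Wee1 were the 2 genes without overlap between these doses, where 8.63% of all genes lay apart upwards. Aurkb (0.27 ± 0.22) and Nek2 (0.30 ± 0.17) had the smallest steps on the brightest probes, with 95% intervals from -0.18 to 0.73 and from -0.04 to 0.65. The probes of a gene differed here: the second Aurkb probe gave 0.85 ± 0.28 and was called (limma adjusted p = 0.0170), the other Plk4 probes gave 1.75 and 1.43, against 0.54 on the brightest, and the other Mastl probes 1.67 and -0.09, against 0.75. With the slide or the scan day as a block 0 of the 10 were called between these doses (limma; 1 had an unadjusted p under 0.05 with either block), where 8.45% and 7.68% of all genes were called higher, and within slide 5, with 1 against 3 arrays, the changes of the 5 called genes were 0.48 to 0.90. Without replicate 1 at 2 µg/cm² all 10 were called. Over all fits without 1 array 4 to 10 of the 10 were called, and 8791 to 10638 of 32492 genes in either direction. All 4 arrays at 2 µg/cm² and 1 of 4 at 5 µg/cm² came from the second scan day, so these doses meet within a day only through that 1 array. In the fit with the day as a block, NM-203 at 1 µg/cm² also carries the day, since its replicate 4 was read on the second day. Against the water group of Min-U-Sil 5, which was read on the same day as the 2 µg/cm² arrays, 9 of the 10 genes were called at that dose, Wee1 among them (0.74 ± 0.16, adjusted p = 0.00232), where 7.7% of all genes were called higher, and Aurka was not (0.61 ± 0.54).

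At the same mass per area, 5 µg/cm², NM-203 gave higher values than DE for 9 of the 10 genes, where 14% of all genes were called higher. The difference ran from 0.67 ± 0.16 for Wee1 (1.59-fold) to 1.90 ± 0.23 for Pbk (3.74-fold). Plk1 was 2.97-fold and Nek2 2.92-fold higher with NM-203. Aurka (1.23 ± 0.54, limma adjusted p = 0.0880) passed only without the outlying array (adjusted p = 0.000422). The arrays of both groups did not overlap for any of the 10 genes, which 13.8% of all genes showed in that direction. NM-203 at 1 µg/cm² and DE, which share the water control, had medians of 0.79 and 0.77 over the 10 genes.

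The effects of the other agents were set against each other as changes over their own controls. The effect of Min-U-Sil 5 at 20 µg/cm² minus that of NM-203 at 5 µg/cm², doses that differ, was called for 0 of the 10 genes (limma; 2 had an unadjusted p under 0.05), where 0.2% of all genes were called in either direction. For 9 of the 10 it was below 0, lowest for Melk (-0.69, 95% interval -1.34 to -0.05) and Plk1 (-0.67, -1.16 to -0.18), and these intervals do not show that both agents act alike. The effect of Min-U-Sil 5 at 20 µg/cm² exceeded that of DE at 5 µg/cm² for Plk1, Plk4, Nek2 and Pbk, by 0.90 to 1.24, where 5.6% of all genes were called higher. The doses and the scan days of these experiments differ. Leaving out 1 array gave 3 to 6 of the 10, where 2890 to 3815 of 32492 genes were called in either direction. The effect of TPA minus that of NM-203 at 5 µg/cm² was called for 0 of 10 (limma; 0 with an unadjusted p under 0.05), where 14.8% of all genes differed. It ran from -0.53 for Melk to 0.62 for Aurka, with SE of 0.23 to 0.76 over the 10 genes. Its interval was -0.81 to 0.18 for Plk1 and -0.38 to 0.55 for Wee1. These values do not show that TPA and NM-203 act alike. TPA minus Min-U-Sil 5 was also called for 0 of 10 (limma; 1 with an unadjusted p under 0.05, Cdc25c, 0.72, interval 0.11 to 1.33), where 5.89% of all genes differed.

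The control groups were not at one level. Aurkb was -0.66 to -0.25 in the water of Min-U-Sil 5, above all arrays of the other water group (-1.52 to -1.04). Among all genes, 23.3% did not overlap between these water groups. Plk1 averaged 1.99 ± 0.24 in the water of Min-U-Sil 5 and 1.49 ± 0.27 in the other water group (SD, n = 4 each), and those groups overlapped, as did the other 8 genes. Between DMSO and the water of NM-203 all 10 genes overlapped, where 2.93% of all genes did not. For Aurkb the level after Min-U-Sil 5 (1.37) was thus above that of NM-203 at 5 µg/cm² (1.07), while its change was smaller.

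Some arrays lay to one side of their group for all 10 genes. Replicate 1 of water, of NM-203 at 1 µg/cm², of NM-203 at 2 µg/cm² and of DE lay above the mean of its group for all 10 genes, as did replicate 3 of NM-203 at 5 µg/cm² and replicate 4 of the water of Min-U-Sil 5. Replicate 3 of water, replicate 4 of NM-203 at 1 µg/cm², replicate 3 of the water of Min-U-Sil 5 and replicate 2 of TPA lay below it for all 10. On replicate 1 of NM-203 at 2 µg/cm² the mean deviation was 0.69. Within groups, the median correlation of a gene with the other 9 was 0.252 for Aurka (lowest 0.022, with Wee1) and 0.577 to 0.768 for the rest. Over the 36 arrays, which hold the treatment effects, Plk1 and Nek2 were the most alike pair (Pearson r = 0.988), followed by Melk and Pbk (0.979) and Aurkb with Nek2 (0.977). Aurka was the least like the rest, with r of 0.763 to the mean of the other 9, and Wee1 came next with 0.826. Both sets of Aurka correlations, within groups and over the 36 arrays, include its outlying value of -0.85 on replicate 2 of NM-203 at 2 µg/cm². They were not computed without that array. The 5 other genes most like the mean of the 10 were Nuf2 (r = 0.993), Oip5 (0.986), Bub1 (0.985), Ccnf (0.984) and Brca1 (0.984). Nuf2 belongs to the outer kinetochore, Oip5 loads the centromeric histone, Bub1 is a spindle checkpoint kinase, Ccnf is cyclin F and Brca1 acts in DNA repair. Nuf2 changed by 2.22 ± 0.18 at 5 µg/cm² of NM-203. These correlations are descriptions over arrays that share treatments, slides and scaling.

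Since all 10 genes rose after 3 of the treatments, their promoters are shown as far as RefSeq windows for GRCm38.p6 were matched, which was for 6 of them (Aurka, Plk1, Plk4, Nek2, Melk and Mastl). Genes of G2 and mitosis often carry CCAAT boxes, bound by NF-Y, and the CHR element TTTGAA, bound by DREAM and B-MYB complexes. CCAAT, searched on both strands, lay within 120 bases before the start in 4 of the 6, against 21.3% of 32841 RefSeq promoters, and Plk4 and Melk had none in that stretch. In the 300-base window, from 250 bases before the start to 50 after it, it was also in 4 of 6, against 37.4% of promoters. The 120 bases before the start are printed for those 4, in the direction of transcription, with CCAAT or its reverse complement ATTGG in capitals. They lie at chr2:172370571-172370690 (minus strand) for Aurka, chr7:122159315-122159434 (plus strand) for Plk1, chr1:191821353-191821472 (plus strand) for Nek2 and chr2:23156025-23156144 (minus strand) for Mastl.
Aurka: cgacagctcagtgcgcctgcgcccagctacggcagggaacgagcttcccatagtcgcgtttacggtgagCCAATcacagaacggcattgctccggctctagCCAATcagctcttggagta
Plk1: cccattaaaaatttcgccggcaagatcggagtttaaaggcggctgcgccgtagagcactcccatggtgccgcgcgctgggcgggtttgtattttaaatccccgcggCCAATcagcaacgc
Nek2: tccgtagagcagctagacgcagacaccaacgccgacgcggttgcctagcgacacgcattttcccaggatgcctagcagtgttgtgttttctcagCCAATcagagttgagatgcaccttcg
Mastl: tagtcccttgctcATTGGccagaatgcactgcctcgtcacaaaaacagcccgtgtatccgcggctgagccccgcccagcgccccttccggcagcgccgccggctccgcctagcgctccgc
TTTGAA lay in the 300-base window in 2 of the 6, Aurka and Plk1, against 17.9% of all promoters, and in the 120 bases before the start in 0 of 6, against 7.12%. The variant TTCGAA lay in 0 of 6 in the 300-base window, against 1.56%, and in 0 of 6 in the 120 bases, against 0.487%. In Aurka and Plk1 TTTGAA began shortly after the annotated start, at base 33 of the Aurka transcript and base 31 of the Plk1 transcript, counted from 1 at the start. The 28 bases around it are printed with the element in capitals, at chr2:172370522-172370549 (minus strand) for Aurka and chr7:122159454-122159481 (plus strand) for Plk1.
Aurka: aaaggagaaccTTTGAAttgtaacggct
Plk1: ccagcgccgcgTTTGAAttcggggagga
A match is a description of letters, and its absence says nothing about a factor.

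The genes around these kinases were followed in 7 lists with 66 tested genes. At 5 µg/cm² of NM-203, 42 of the 66 rose and 5 fell, where 14% of all genes were called higher and 19.1% lower, with a median change of 0.67. Min-U-Sil 5 raised 39 and lowered 3, where 11.6% of all genes were called higher and 13.9% lower. TPA raised 29 and lowered 3, against 4.89% of all genes higher and 6.78% lower. At 2 µg/cm² of NM-203 33 rose and 3 fell, where 16.2% of all genes were called higher and 8.85% lower. DE raised 4 and lowered 0, against 0.557% of all genes higher and 0.449% lower. NM-203 at 1 µg/cm² raised 1 and lowered 0 (limma), against 0.0431% of all genes in each direction. The CDK1 switch rose in 9 of 10 genes at 5 µg/cm², led by the checkpoint kinase Chek1 (2.29 ± 0.25), cyclin A2 (Ccna2, 2.01 ± 0.31) and cyclin B1 (Ccnb1, 1.97 ± 0.19). Cdk1 itself rose by 1.84 and the WEE1 relative Pkmyt1 by 1.93. Cdc25a and Cdc25b, the other phosphatases of the family, rose by 0.91 and 0.75, against 1.91 for Cdc25c. Chek1 changed by 0.13 at 2 µg/cm² and was not called there, unlike Ccnb1 (1.69).

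Of the activators of the Aurora kinases and the passenger complex 7 of 8 rose at 5 µg/cm², where 14% of all genes were called higher. Haspin, which marks histone H3 for Aurora B, rose by 2.47 ± 0.19, the passenger subunits Birc5, Cdca8 and Incenp by 2.25, 2.22 and 2.18, and the Aurora A activators Bora and Tpx2 by 2.09 each. Ajuba, another Aurora A activator, measured 0.24 and was not called. Tpx2 was the 1 listed gene called at 1 µg/cm² (0.68).

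Around Plk4, 5 of 7 centriole genes rose at 5 µg/cm², among them its substrate Stil (1.61 ± 0.41) and the cartwheel protein Sass6 (1.49 ± 0.26), while Cep63 (-0.14) and Cenpj (-0.23) were not called. At that dose 14% of all genes were called higher. In the Greatwall pathway 6 of 8 rose, but by less. Its substrate Arpp19 rose by 0.87 ± 0.11 and the other substrate, Ensa, measured -0.01, where Mastl rose by 2.07. Ppp2r2d, a B55 subunit of PP2A, rose by 0.64. After TPA 0 of these 8 were called (limma; 3 had an unadjusted p under 0.05), where 4.89% of all genes were called higher and 6.78% lower, so that a count of 0 is near the background.

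Among the transcription factors and MuvB subunits 8 of 12 rose and 1 fell at 5 µg/cm², where 14% of all genes were called higher and 19.1% lower. B-MYB (Mybl2) rose by 2.84 ± 0.17, more than any of the 10 kinase and phosphatase genes, Foxm1 by 2.16 ± 0.20 and Lin9 by 1.90 ± 0.16, and Rbl2, which encodes p130 of the repressive DREAM complex, fell by 0.84 on the log2 scale. Of the degradation machinery 6 of 8 rose, with Fbxo5 (2.25), Cdc20 (2.06) and Ube2c (1.89) in front, and Btrc (-0.38), whose product takes WEE1 to destruction, was not called.

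Other members of the Aurora, Polo, NEK and WEE1 families, some of which also act in mitosis (Nek9 and Nek7 in building the spindle), were followed too. Of 15 such genes 13 were tested, and at 5 µg/cm² 1 rose and 4 fell, near the 14% higher and 19.1% lower of all genes. Plk3 rose by 0.43 ± 0.15 and fell after TPA by 0.78 on the log2 scale. Nek4, Nek8, Nek7 and Nek9 fell by 0.84, 0.72, 0.34 and 0.31 on the log2 scale, while Nek2 rose by 2.36. Aurkc, the third Aurora kinase, measured 0.60 and was not called.

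**Figure D4:**
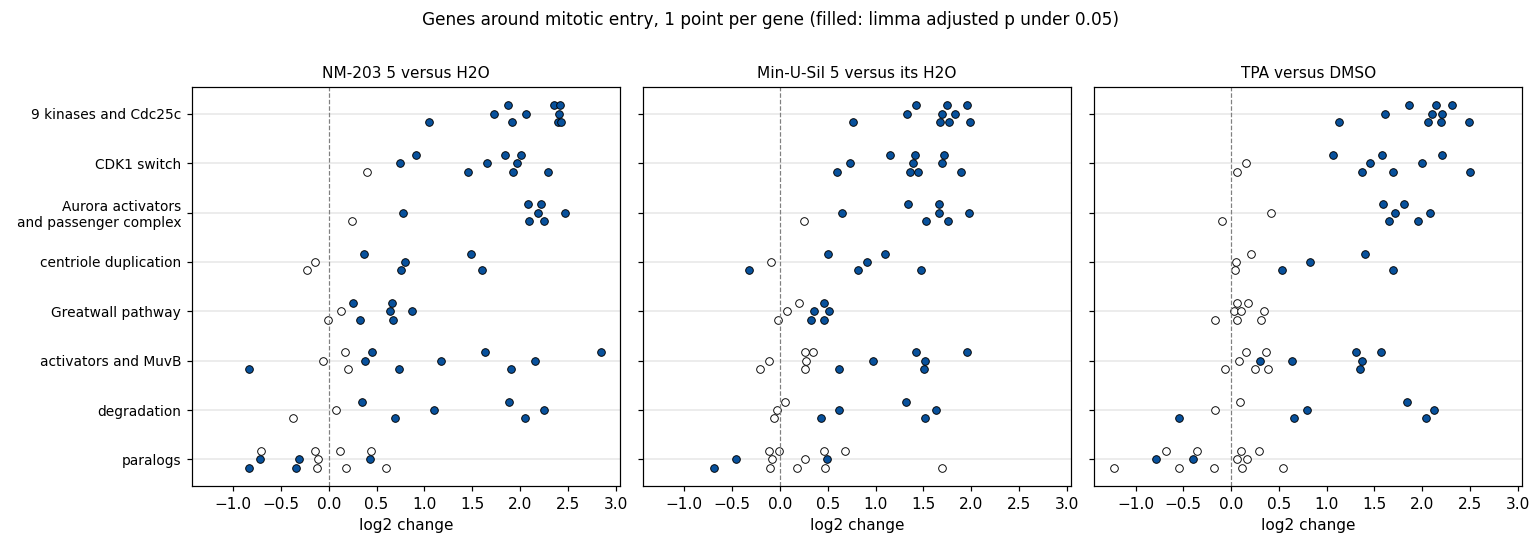
Log2 change of each gene (1 point per gene, filled for an adjusted p under 0.05) for the 10 kinase and phosphatase genes and 7 lists around them, in 3 panels for NM-203 at 5 µg/cm², Min-U-Sil 5 and TPA against their controls. The CDK1 switch and the Aurora partners reach the range of the 10 genes, the Greatwall pathway stays below 1 in all 3 panels, and the family relatives lie on both sides of 0.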

How the data were processed

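RNA of Bhas 42 cells was measured on 36 single-colour mouse arrays, 4 in each of 9 groups taken from the sample labels. The deposited files hold spot intensity values, background-subtracted by Agilent Feature Extraction 11.0.1.1 per the file headers and not yet scaled between arrays. The series also has a deposited table of log2 values by the authors, with column medians of -0.25 to 0.27 over 56745 probes. Its centring is unstated, its columns correlated best with their own scanner array for 33 of 36 arrays, and it served as an alternative. The other 3 were replicates 1 to 3 of Min-U-Sil 5, each best matched by another replicate of that group (own r of 0.406 to 0.680), so the numbering of these replicates is unsettled while their group is not.

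Control spots and outlier spots were left out, each processed intensity was divided by the 75th percentile of its array, and log2 was taken. Spots of a probe were averaged. A probe was kept if some group had 3 or more of its 4 arrays well above background (40679 probes). Probes were named through their accession in RefSeq tables, and the brightest probe stood for a gene (32492 gene names, 17872 of them symbols, the rest unmatched identifiers). Tests used limma 3.58.1 in R 4.3.3 with 1 fit over all 9 groups, and Benjamini-Hochberg adjustment over all genes at 0.05. Adjusted p-values without a named tool in the text are from this limma fit, and those of single probes from the same fit over probes. The difference of Cdc25c and Wee1 was tested by exact permutation over 70 splits. Figures were drawn with matplotlib 3.10.9. The fit was tested on simulated data.

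The 10 genes and the lists of related genes and cell markers were chosen with earlier results of these data known. All 10 genes are named in every comparison, from each list up to 3 genes with the largest called change in each direction after NM-203 at 5 µg/cm², others by role, and the 5 genes most correlated with the mean of the 10. No label ties equal replicate numbers to a shared experiment. Of 24 pairs of deviations over all genes 6 correlated above 0.1 (-0.60 to 0.33). Both extremes were of Min-U-Sil 5, where the numbering is unsettled. For the 10 genes, replicate 1 of water, of NM-203 at 1 and 2 µg/cm² and of DE lay above its group mean. These values do not settle whether same-numbered arrays belong together. Alternatives covered the background correction (normexp with an offset of 50 on median signals, since the files used hold no mean signal), the scaling, the filter, the choice of probe, the value table, slide, scan day and replicate blocks, array weights, fits of 2 groups, values within slides and the leaving out of each array. The number of arrays limits the precision.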

Additional observations from a re-analysis of the deposited data

Results flagged for a closer look

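In 6 of the 90 groups of 4 arrays (10 genes in 9 groups), the highest or lowest array stood apart from the other 3 by a share of the whole range of the group above Dixon's critical value. Chance flags about 1 in 20 groups. At 5 µg/cm² of NM-203, replicate 2 was low for Aurkb (0.67, against 1.17 to 1.24 on the other 3) and for Plk1 (3.70, against 3.96 to 3.99). At 2 µg/cm², replicate 1 was high for Plk1 (4.09, against 3.25 to 3.33). The other 3 were of Wee1: replicate 1 of DE at 0.048 (others -0.22 to -0.18), replicate 3 of Min-U-Sil 5 at 0.22 (others -0.21 to -0.17) and replicate 3 of its water at -1.19 (others -0.79 to -0.71). The Aurka value of -0.85 at 2 µg/cm² was not among them, since the gap to the next array was a smaller share of the range.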

How the results depend on the processing

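After NM-203 at 5 µg/cm², Min-U-Sil 5 and TPA, 690 of 690 values of the 10 genes under the alternatives kept their direction and their call. Over all 13 comparisons 2477 of 2640 did, 113 lost a call, 39 gained one and 11 changed sign, of which 0 were called (limma). With the replicate number as a block, 1 of the 10 genes was called at 1 µg/cm² of NM-203 (33 genes in all). No other call count of the 10 genes changed. Whether equal numbers mark a shared experiment is not given by the labels. Values within slides for the comparisons among NM-203 and DE, and those without replicate 2 of NM-203 at 2 µg/cm², were chosen after seeing the data. Depth, here signal over background, limits the dim probes of Mastl and Wee1. The causes of the shifts listed were not tested.

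At 1 µg/cm² of NM-203 the calls (28 genes, 2 of the 10) became 1 of the 10 with normexp, 1 gene and 0 of the 10 with centring on the median, 16 and 0 with the value table, 5 and 0 without the filter, 56 genes with the filter on all arrays, 15 and 0 with the mean of probes, 0 and 0 with 2 groups, 100 and 4 with a slide block, 103 genes with a random slide block, 1 of the 10 with a scan day block, 293 and 6 with array weights, 10 and 0, 17 and 0, and 0 and 0 within slides 1, 2 and 3, and 3 and 0 within day 1. After DE (327 genes, 4 of the 10) they became 27 and 0 with centring, 209 genes without the filter, 0 and 0 with 2 groups, 512 with the random block, 570 with weights, and 51, 49 and 58 with 0 of the 10 within slides 1, 2 and 3. Of the calls, 50% were higher at 1 µg/cm², against 36.8% with normexp and 0% with centring, 55.4% after DE, against 77.8% with centring, and 41.9% after TPA, against 55.6% with centring.

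Gene calls at 2 µg/cm² (8125) were 5330 with centring, 2912 with 2 groups, 2328 with a slide block, 1716 with a day block and 5061 against the water of Min-U-Sil 5. At 5 µg/cm² (10740) they were 5631 and 5027 within slides 1 and 3, after Min-U-Sil 5 (8303) 3216 within slide 5, and after TPA (3792) 1747 with centring, 6392 with weights and 459 within slide 1. For 5 against 1 µg/cm² (9138) they were 4628, 2775 (3 of the 10) and 3372 within slides 1, 3 and 5 and 3418 within day 2. For 5 against 2 µg/cm² (10628 genes, 5 of the 10) they were 0 of the 10 with a slide block, 6555 and 0 with a day block, 5360 and 0 within slide 5 and 4829 and 0 within day 2. For NM-203 against DE (9494) they were 3728 and 5704 within slides 1 and 3. With a slide block 1 of the 10 was called for TPA minus Min-U-Sil 5. The Cdc25c minus Wee1 shift of DE was 0.62 with normexp and 0.77 with the mean of probes, both past the threshold, and that at 2 µg/cm² was 0.97 and not past it with the mean of probes.

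Leaving out 1 array gave 2 to 101 genes and 0 to 3 of the 10 at 1 µg/cm², 87 to 410 genes and 0 to 4 of the 10 after DE, 4 to 10 of the 10 for 5 against 2 µg/cm², 3 to 6 of the 10 for Min-U-Sil 5 minus DE and 17 to 182 genes for Min-U-Sil 5 minus NM-203. The Cdc25c minus Wee1 shift ranged from 0.59 to 0.82, 0.87 to 1.22 and 0.76 to 0.99 at the 3 doses, 0.43 to 0.66 after DE, 0.50 to 0.66 after Min-U-Sil 5 and 0.90 to 0.94 after TPA. The sign changes were Wee1 at 1 µg/cm² with the mean of probes (-0.021), Aurka for Min-U-Sil 5 minus NM-203 with a day block (-0.091) and without 1 array (-0.19 to 0.23), Wee1 for TPA minus NM-203 with a day block (-0.033), Aurka for 5 against 2 µg/cm² within slide 5 (-0.55), and, without 1 array, Aurkb for 5 against 2 µg/cm² (-0.012 to 0.57) and, for TPA minus NM-203, Plk4 (-0.25 to 0.014), Mastl (-0.012 to 0.25) and Cdc25c (-0.051 to 0.27).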
